A study of Mus musculus with 30 samples.

Results

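The inflammasome is a protein complex of the innate immune system that turns danger signals into inflammation. The 10 genes described here are rows of the gene count table chosen by symbol, 10 of 55401: the sensors Nlrp3, Aim2, Nlrc4 and Naip5, the adaptor Pycard, the caspases Casp1 and Casp4, the pore protein Gsdmd, and Nek7 and Txnip, which bind Nlrp3. All 10 passed the filter on low counts. They were measured in gonadal white adipose tissue (gWAT) of female New Zealand Obese mice (NZO/HIBomDife), an inbred strain that becomes obese. The mice were diabetes-prone (DP, n = 15) or, as controls, diabetes-resistant (DR, n = 15). Both groups were 10 weeks old and had eaten a high-fat diet for 5 weeks, and a risk score sorted them into groups before DP mice became hyperglycaemic. The groups therefore differ by classification, not by an allele or a treatment, and the comparison asks how gWAT of mice at risk differs ahead of the disease.

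A canonical inflammasome forms when a sensor detects a microbial or metabolic signal and recruits the adaptor ASC, encoded by Pycard, which gathers caspase-1 so that it cleaves itself. Caspase-1 then matures the cytokines IL-1β and IL-18 and cuts gasdermin D, whose amino-terminal part forms pores in the plasma membrane and leads to pyroptosis, a lytic cell death. Caspase-11, encoded by Casp4 in mice, binds lipopolysaccharide inside cells and cuts gasdermin D without a canonical sensor. In obese adipose tissue the NLRP3 inflammasome is best known from macrophages. Activation itself happens on the protein level, and transcript levels do not measure it.

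Every library held 28146906 to 29974243 counts, with 23854 to 24666 genes detected. Adipocyte markers were abundant in every library, with summed levels of 32054 to 41969 CPM in DP and 42210 to 49418 CPM in DR, in keeping with the tissue's label. CPM are counts scaled to library size and composition. The summed level of 20 macrophage markers was 4783 to 6864 CPM in DP and 1874 to 4223 CPM in DR, so that these groups did not overlap. In bulk tissue, fewer cells of a type and less RNA per cell cannot be told apart.

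Of the 10 genes, 8 were higher in DP and 1 was lower in edgeR's quasi-likelihood fit, at a Benjamini-Hochberg adjusted p of 0.05. Over all 17482 genes tested, 28.2% were higher and 27.3% were lower. The median log2 fold change, DP over DR, was 0.46 over the 10 genes and -0.01 over all genes tested. For 4 of the 10, Pycard, Casp1, Casp4 and Gsdmd, every DP library was above every DR library, a separation seen for 1.96% of all genes tested.

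**Figure D1:**
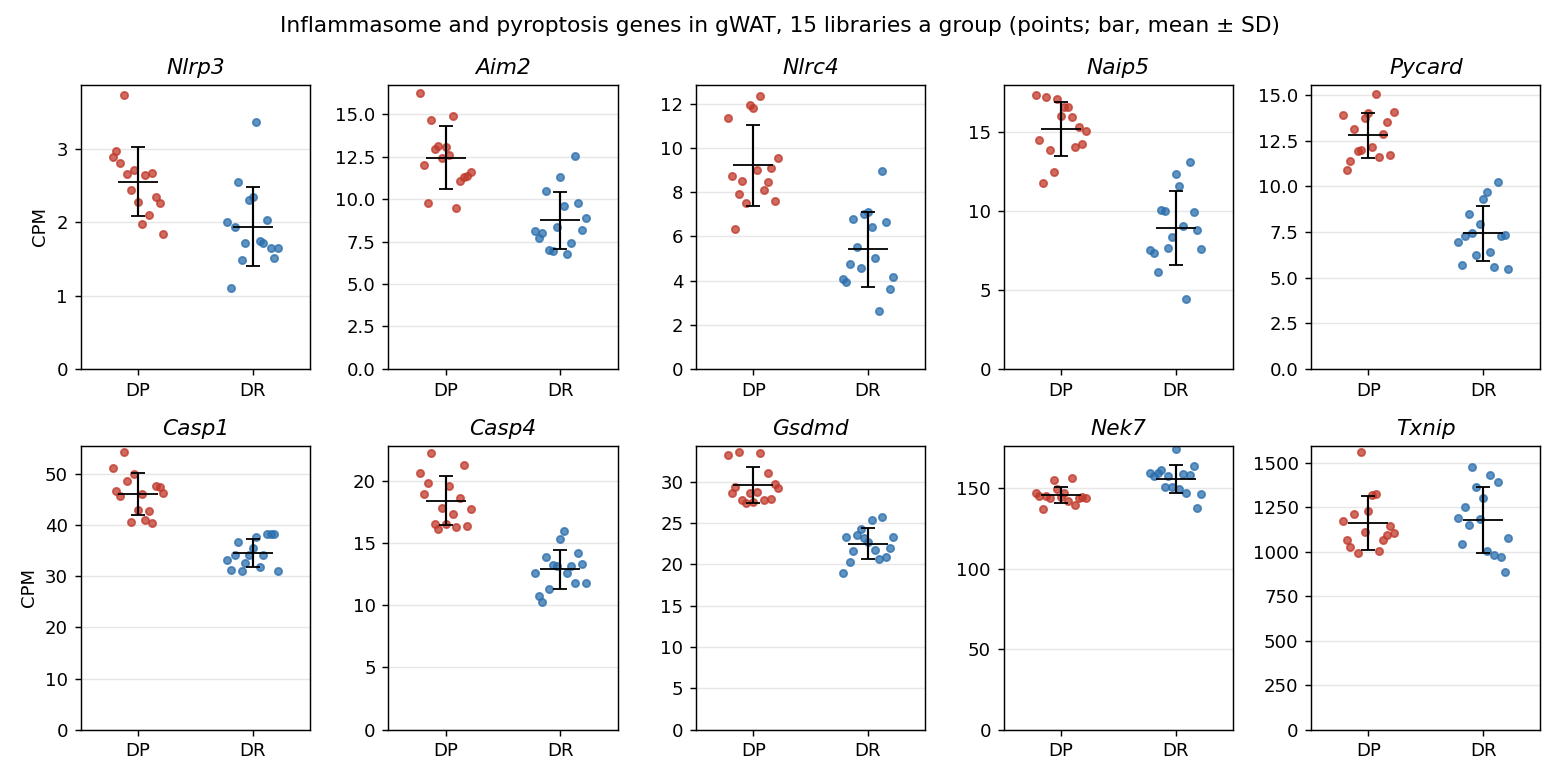
CPM of each of the 10 genes in every library, with DP on the left and DR on the right of each panel. Points are libraries and bars are mean ± SD (n = 15 per group). The groups are apart for Pycard, Casp1, Casp4 and Gsdmd, and Txnip spans about the same range in both.

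The bases before the start of transcription are shown for 3 genes that rose and for Txnip, because those 3 share a short motif and Txnip carries an element known from sugar-responsive genes. The windows are RefSeq promoters on GRCm38.p6 and hold the 250 bases before the start, written 5′ to 3′ on the gene's strand. They lie at chr11:59542436-59542685 (+) for Nlrp3, chr9:5298267-5298516 (+) for Casp1, chr7:127993868-127994117 (-) for Pycard and chr3:96557707-96557956 (+) for Txnip. Capitals mark GAGGAA or its reverse complement (the core bound by the myeloid factor PU.1) and CACGTG (an E-box) in the first 3, and the carbohydrate response element in Txnip.
Nlrp3: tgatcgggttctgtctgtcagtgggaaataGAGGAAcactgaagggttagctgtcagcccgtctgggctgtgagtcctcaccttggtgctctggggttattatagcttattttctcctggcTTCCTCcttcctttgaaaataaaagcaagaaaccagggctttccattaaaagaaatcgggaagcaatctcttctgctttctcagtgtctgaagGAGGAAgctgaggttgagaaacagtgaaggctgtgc
Casp1: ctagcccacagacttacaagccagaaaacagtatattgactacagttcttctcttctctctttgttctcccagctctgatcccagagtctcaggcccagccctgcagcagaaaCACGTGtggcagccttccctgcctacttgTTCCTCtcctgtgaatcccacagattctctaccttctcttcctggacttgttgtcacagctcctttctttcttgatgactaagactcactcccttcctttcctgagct
Pycard: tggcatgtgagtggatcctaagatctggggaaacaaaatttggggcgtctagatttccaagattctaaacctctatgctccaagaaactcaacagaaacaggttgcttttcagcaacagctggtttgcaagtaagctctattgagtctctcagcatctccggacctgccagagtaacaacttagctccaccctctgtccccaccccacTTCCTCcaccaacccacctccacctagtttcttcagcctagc
Txnip: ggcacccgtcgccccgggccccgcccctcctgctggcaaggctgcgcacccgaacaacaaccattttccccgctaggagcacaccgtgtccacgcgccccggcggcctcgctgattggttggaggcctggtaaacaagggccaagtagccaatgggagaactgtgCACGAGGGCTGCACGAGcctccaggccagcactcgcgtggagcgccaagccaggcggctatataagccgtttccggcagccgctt
On both strands, GAGGAA was found before 4 of the 9 genes with a window (Nlrp3, Aim2, Pycard and Casp1), and in 23.3% of all 32851 windows. These 9 genes have 11 windows, so a count by gene is not the same measure as a share of windows. The matches of Nlrp3 lie in the window printed, which is inside the annotated gene, and not in that of its other RefSeq start. CACGTG was found before Casp1 alone, and in 6.02% of all windows. The carbohydrate response element, a pair of E-box-like hexamers 5 bases apart to which MondoA and ChREBP bind, was found before Txnip alone, and in 0.0731% of all windows. The NF-κB motif was found before Casp4, Naip5 and the other RefSeq start of Nlrp3, and in 3.90% of all windows. GAAANNGAA, the core of the interferon-stimulated response element, was found before 0 of the 9 genes and in 7.13% of all windows. No marked motif overlapped another, and a match is a description of the letters only.

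All 4 sensors were higher in DP. Nlrp3, which responds to ion fluxes, crystals and lipids, lies on chromosome 11 (59541568 to 59566956, plus strand) and had the lowest counts of the 10 genes, 65.0 on average. It had 1.85 CPM at the lowest, 2.65 at the median and 3.74 at the highest in DP, against 1.10, 1.75 and 3.38 CPM in DR. All 15 DP libraries were above the DR median, yet 7 DR libraries lay inside the DP range. The log2 fold change was 0.40 ± 0.12 (SE; adjusted p = 0.00528). This call was kept when any 1 of the 30 libraries was left out (log2 fold change 0.34 to 0.46). It was lost in the 15 with higher library numbers alone, where the log2 fold change of Nlrp3 was 0.16 (SE 0.17, adjusted p = 0.484). In those with lower numbers it was 0.57 (SE 0.16, adjusted p = 0.00747), and the difference between these sets was not tested.

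Aim2, which senses double-stranded DNA in the cytosol, lies on chromosome 1 (173350879 to 173466040, plus strand). Its lowest, median and highest levels were 9.495, 12.4 and 16.3 CPM in DP, against 6.77, 8.17 and 12.5 CPM in DR. In DP 7 libraries exceeded every DR library. The log2 fold change of Aim2 was 0.51 ± 0.09 (SE; adjusted p = 8.61e-06).

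Nlrc4 and Naip5 work as a pair: in mice NAIP5 binds bacterial flagellin and then engages NLRC4. Nlrc4 (chromosome 17, 74425438 to 74459142, minus strand) had 6.35, 8.75 and 12.4 CPM as lowest, median and highest in DP, against 2.61, 5.02 and 8.94 CPM in DR. Naip5 (chromosome 13, 100211739 to 100246323, minus strand) had 11.8, 15.3 and 17.3 CPM in DP, against 4.40, 8.80 and 13.1 CPM in DR. Only 2 DR libraries reached the DP range for Naip5, and 6 did for Nlrc4. Their log2 fold changes were nearly equal, 0.77 ± 0.13 for Nlrc4 (SE; adjusted p = 1.13e-05) and 0.77 ± 0.10 for Naip5 (SE; adjusted p = 2.66e-07). Naip5 has close copies beside it on chromosome 13, Naip2, Naip6 and Naip1, and reads shared among these 4 could have been split by the counting.

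Pycard (chromosome 7, 127989708 to 127993867, minus strand), the adaptor that links sensors to caspase-1, had the highest fold change of the 10 genes. It had 10.9 CPM at the lowest, 12.9 at the median and 15.1 at the highest in DP, against 5.48, 7.29 and 10.2 CPM in DR. Pycard separated the groups without overlap. Its log2 fold change was 0.79 ± 0.08 (SE; adjusted p = 2.42e-09), a 1.72-fold higher level. Among called genes, 673 of 17482 tested had a higher fold change. Pycard shares 485 exon bases with Gm45205 on the other strand, whose log2 fold change was 1.03 (adjusted p = 8.46e-07) at 55.4 counts on average against 292.2 for Pycard, and without a stated strand setting their reads cannot be told apart.

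Both caspases among the 10 genes were higher in DP. Casp1 (chromosome 9, 5298517 to 5307265, plus strand), the protease of canonical inflammasomes, had 40.5, 46.2 and 54.4 CPM as lowest, median and highest in DP, against 31.1, 34.2 and 38.3 CPM in DR. Casp4 (chromosome 9, 5308828 to 5336783, plus strand), its neighbour, had 16.2, 17.8 and 22.2 CPM in DP, against 10.3, 13.2 and 15.99 CPM in DR. Neither overlapped between the groups. The log2 fold change was 0.42 ± 0.04 for Casp1 (SE; adjusted p = 3.68e-09) and 0.51 ± 0.06 for Casp4 (SE; adjusted p = 1.97e-08). The 95% intervals of the log2 fold change overlapped, 0.33 to 0.50 for Casp1 and 0.39 to 0.64 for Casp4, and the difference between the 2 genes was not tested.

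Gsdmd (chromosome 15, 75862327 to 75867408, plus strand) encodes gasdermin D, the pore of pyroptosis. It had 27.4, 28.7 and 33.6 CPM as lowest, median and highest in DP, against 18.96, 22.7 and 25.7 CPM in DR. The groups did not overlap, and the log2 fold change was 0.40 ± 0.04 (SE; adjusted p = 4.33e-09). The coefficient of variation of Gsdmd between libraries was the second lowest of the 10 genes in DP, 7.44%, after 3.47% for Nek7.

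Neither Nek7 nor Txnip, listed here as cofactors of NLRP3, was higher in DP. Nek7 (chromosome 1, 138482875 to 138620141, minus strand), a kinase that bridges NLRP3 subunits, had 136.8, 144.9 and 156.1 CPM as lowest, median and highest in DP, against 137.7, 157.8 and 174.6 CPM in DR. All 15 DP libraries were below the DR median, and 9 DR libraries exceeded every DP library. The log2 fold change of Nek7 was -0.09 ± 0.03 (SE; adjusted p = 0.00264), a 1.07-fold lower level. In the libraries with higher numbers alone Nek7 was not called (adjusted p = 0.0796), at a similar log2 fold change of -0.10.

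Txnip (chromosome 3, 96557957 to 96561883, plus strand) encodes thioredoxin-interacting protein, which is induced by glucose and which can bind NLRP3 under oxidative stress. It had 993, 1109 and 1562 CPM as lowest, median and highest in DP, against 885, 1184 and 1478 CPM in DR. In DP 5 libraries were above the DR median and 10 were below it. The log2 fold change was -0.02 ± 0.07 (SE; adjusted p = 0.808), with a 95% interval of -0.17 to 0.12. Txnip shares 606 exon bases with Gm15441 on the other strand, which had 1076 counts on average against 33713 for Txnip.

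**Figure D2:**
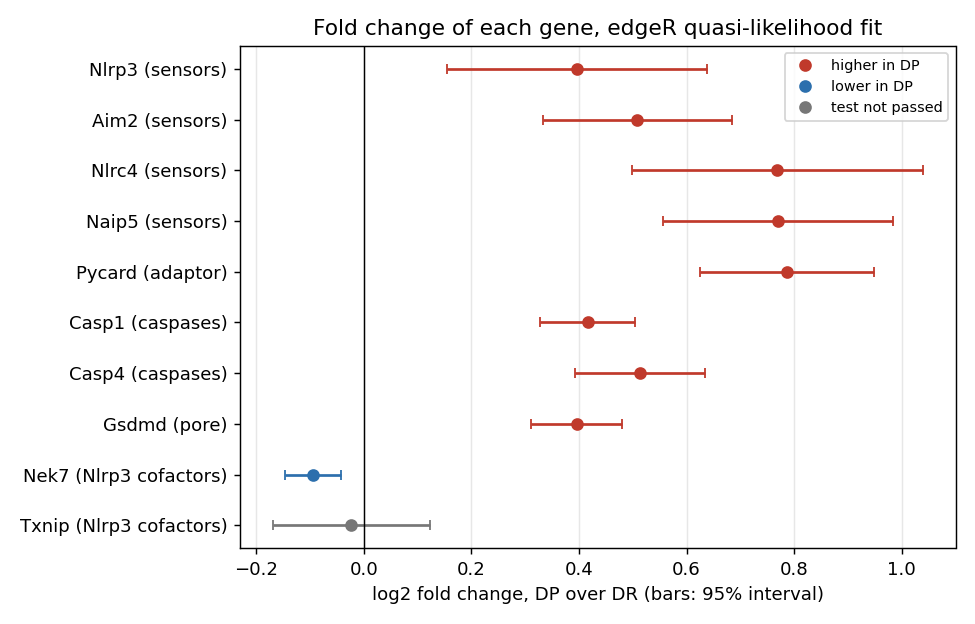
Log2 fold change, DP over DR, of each of the 10 genes by role, with 95% intervals from the edgeR fit across all genes (n = 15 per group). The interval of Txnip, -0.17 to 0.12, spans 0, and that of Nek7 lies below 0.

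The order of transcript levels was compared per length of exon, merged over all annotated transcripts of a gene. That length can exceed the length of the transcripts expressed, which would lower the place of a gene. For Pycard it was 3800 bases, in a gene that spans 127989708 to 127993867, so its place in the order is uncertain. Txnip led by far, with 372.1 ± 48.3 CPM per kb in DP and 378.0 ± 59.3 CPM per kb in DR (SD, n = 15 each). Casp1 followed with 30.8 ± 2.71 CPM per kb in DP and 23.1 ± 1.83 CPM per kb in DR, then Nek7 with 19.8 ± 0.685 in DP and 21.1 ± 1.18 in DR, and Gsdmd with 12.5 ± 0.927 in DP and 9.47 ± 0.797 in DR. The ranges of Casp1 and Nek7 did not overlap in DP and did in DR. Casp4 (4.96 ± 0.530 CPM per kb in DP and 3.47 ± 0.430 in DR), Aim2 (3.55 ± 0.529 in DP and 2.50 ± 0.484 in DR), Pycard (3.37 ± 0.324 in DP and 1.95 ± 0.391 in DR) and Naip5 (2.92 ± 0.328 in DP and 1.71 ± 0.448 in DR) overlapped with the next gene in the order in both groups. Nlrc4 had 1.92 ± 0.381 CPM per kb in DP and 1.13 ± 0.353 in DR. Nlrp3 was last, with 0.631 ± 0.116 CPM per kb in DP and 0.479 ± 0.134 in DR, and its range overlapped with that of Nlrc4 in DR and not in DP.

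**Figure D3:**
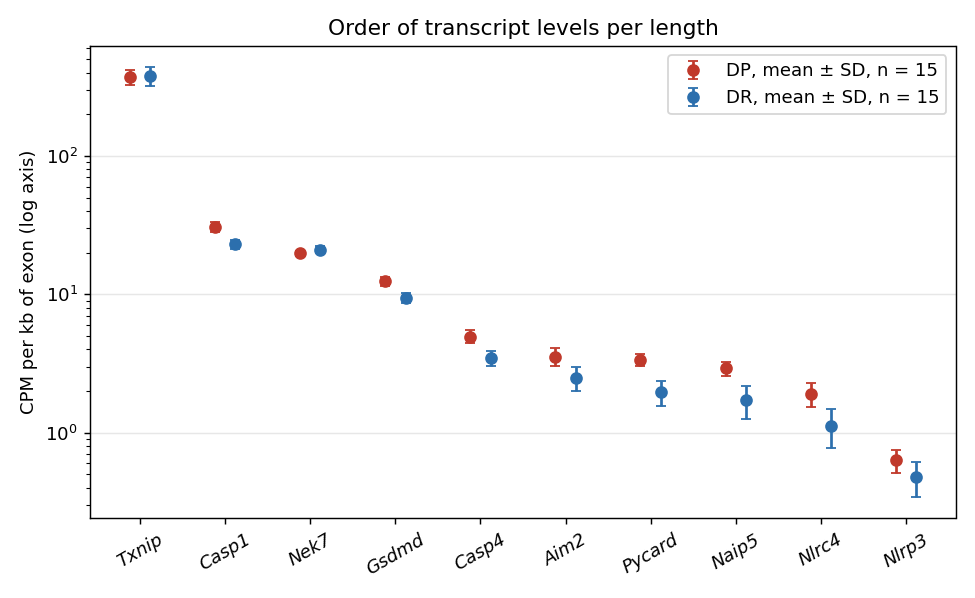
CPM per kb of exon of the 10 genes on a log axis, ordered by the level in DR, with DP left of DR for each gene. Points are means and bars are SD (n = 15 per group); Txnip is highest and Nlrp3 lowest in both groups.

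Libraries also varied within their groups. The coefficient of variation of Nlrc4 was 19.9% in DP and 31.4% in DR, and that of Nlrp3 was 18.4% in DP and 27.99% in DR. For Casp1 it was 8.80% in DP and 7.91% in DR, and for Nek7 3.47% in DP and 5.60% in DR. In DP replicate 4 had the highest level for 4 of the 8 genes that rose, and in DR replicate 12 had the highest level for 6 of the 8. Those libraries ranked 2 and 3 in their groups by the macrophage marker mean. The libraries that ranked 1, DP replicate 7 and DR replicate 8, had the highest level for 0 of the 8. After the group mean was subtracted, Nlrc4 and Naip5 varied together most closely over the 30 libraries (r = 0.82), followed by Nlrc4 and Pycard (r = 0.81) and Naip5 and Pycard (r = 0.76). Casp1 and Casp4 had r = 0.56, Casp1 and Gsdmd 0.17, and Casp1 and Txnip -0.34. These are descriptions over libraries that share their scaling.

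The genes most like each of the 10 were sought by the same measure, over the 30 libraries and 13993 genes. Nlrc4 was most like Lyz2 (r = 0.94), Hk3 (r = 0.94) and Trem2 (r = 0.93), of which Lyz2 encodes a lysozyme of myeloid cells and Trem2 a lipid receptor of macrophages. Naip5 was most like Irf5 (r = 0.91), Ikbke (r = 0.90) and Arrb2 (r = 0.89), and Pycard like Grb2 (r = 0.90), C5ar1 (r = 0.89) and Pik3ap1 (r = 0.88). Aim2 was most like Slamf7 (r = 0.80), Slc43a2 (r = 0.79) and Rgs10 (r = 0.78). Nlrp3 was most like Hsp90b1 (r = 0.78), Pml (r = 0.76) and Erp44 (r = 0.76), of which Hsp90b1 and Erp44 encode chaperones of the endoplasmic reticulum. Casp1 was most like Lacc1 (r = 0.76), Art2b (r = 0.74) and 2700099C18Rik (r = 0.74), and Casp4 like Ifi204 (r = 0.74), Ipcef1 (r = 0.66) and 2700099C18Rik (r = 0.64). Gsdmd was most like Gm44777 (r = 0.70), Kif19a (r = 0.68) and B3galt6 (r = 0.66). Nek7 was most like Dock11 (r = 0.79), Chm (r = 0.75) and Uhrf1bp1l (r = 0.75), and Txnip like Fcgrt (r = 0.83), Thbs2 (r = 0.79) and Rusc2 (r = 0.78).

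Macrophage markers also differed between the groups. Of the 20 markers, 16 were higher in DP and 2 lower (Cd163 and Timd4, named after their values were seen), with a median log2 fold change of 0.87 over the list against -0.01 over all genes. The mean log2 CPM of the list was 6.68 to 7.02 in DP and 5.56 to 6.53 in DR. With that mean as a covariate, which correlated with group at 0.88, 0 of the 10 genes and 0 of all genes were called by edgeR, and 1808 genes had an unadjusted p under 0.05. The log2 fold changes were then -0.29 for Nlrp3, -0.34 for Nlrc4, -0.08 for Aim2 and for Naip5, and 0.15 for Pycard. They were 0.22 for Casp1, 0.27 for Casp4, 0.22 for Gsdmd and -0.17 for Nek7. Their SE ran from 0.05 for Nek7 to 0.19 for Nlrp3. Neutrophil markers were higher for 7 of 10 tested, with summed levels of 36.8 to 66.7 CPM in DP and 16.1 to 49.9 CPM in DR, and Ly6g at a median of 0.140 CPM in DP and 0 in DR. Of 15 adipocyte markers 14 were lower in DP, and of 8 endothelial markers all 8. Mast cell markers were higher for 5 of 6 tested and lower for 1, and dendritic cell markers lower for 3 of 8. T cell markers were higher for 2 of 10 (median log2 fold change -0.19), and B cell markers lower for 1 of 6 tested (median -0.31). The counts of each cell type stand beside 28.2% higher and 27.3% lower over all genes tested. Of 6 mesothelial markers 5 were lower (median log2 fold change -0.52), with summed levels of 47.0 to 134.6 CPM in DP and 71.8 to 223.4 CPM in DR. Monocyte markers were higher for 2 of 4 and lower for 1, with summed levels of 138.8 to 205.5 CPM in DP and 105.5 to 166.7 CPM in DR, and ovary markers were higher for 1 of 3 tested. The part of these cell types in the results on the 10 genes was not tested.

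Within each group, each gene was set against the macrophage marker mean, as 20 of 34 relations computed on log2 CPM, with permutation tests (two-sided, 100000 resamples) adjusted over all 34. In DR 5 genes passed the adjusted threshold. Nlrc4 had Pearson's r = 0.92 (p = 1e-05, the smallest the resamples can give; adjusted p = 0.00017) and Spearman's rho = 0.90 (adjusted p = 0.00102), and r = 0.88 without the 2 libraries farthest from the median. Pycard had r = 0.88 (adjusted p = 0.00017) and rho = 0.85 (adjusted p = 0.00153), and r = 0.87 without those 2. Naip5 had r = 0.84 (adjusted p = 0.00159) and rho = 0.81 (adjusted p = 0.00499), and r = 0.69 without those 2. Aim2 had r = 0.78 (adjusted p = 0.00484) and rho = 0.75 (adjusted p = 0.0121), and r = 0.79 without those 2. Nlrp3 had r = 0.66 (adjusted p = 0.0395) and rho = 0.68 (adjusted p = 0.0387), and r = 0.75 without those 2. In DP Naip5 alone passed, with r = 0.69 (adjusted p = 0.0275), rho = 0.75 (adjusted p = 0.0121) and r = 0.60 without those 2. Casp1, Casp4, Gsdmd, Nek7 and Txnip passed in neither group, with Pearson's r of 0.48 in DP and 0.54 in DR for Casp1 and 0.06 in DP and 0.23 in DR for Txnip. Whether DP and DR differ in these relations was not tested.

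**Figure D4:**
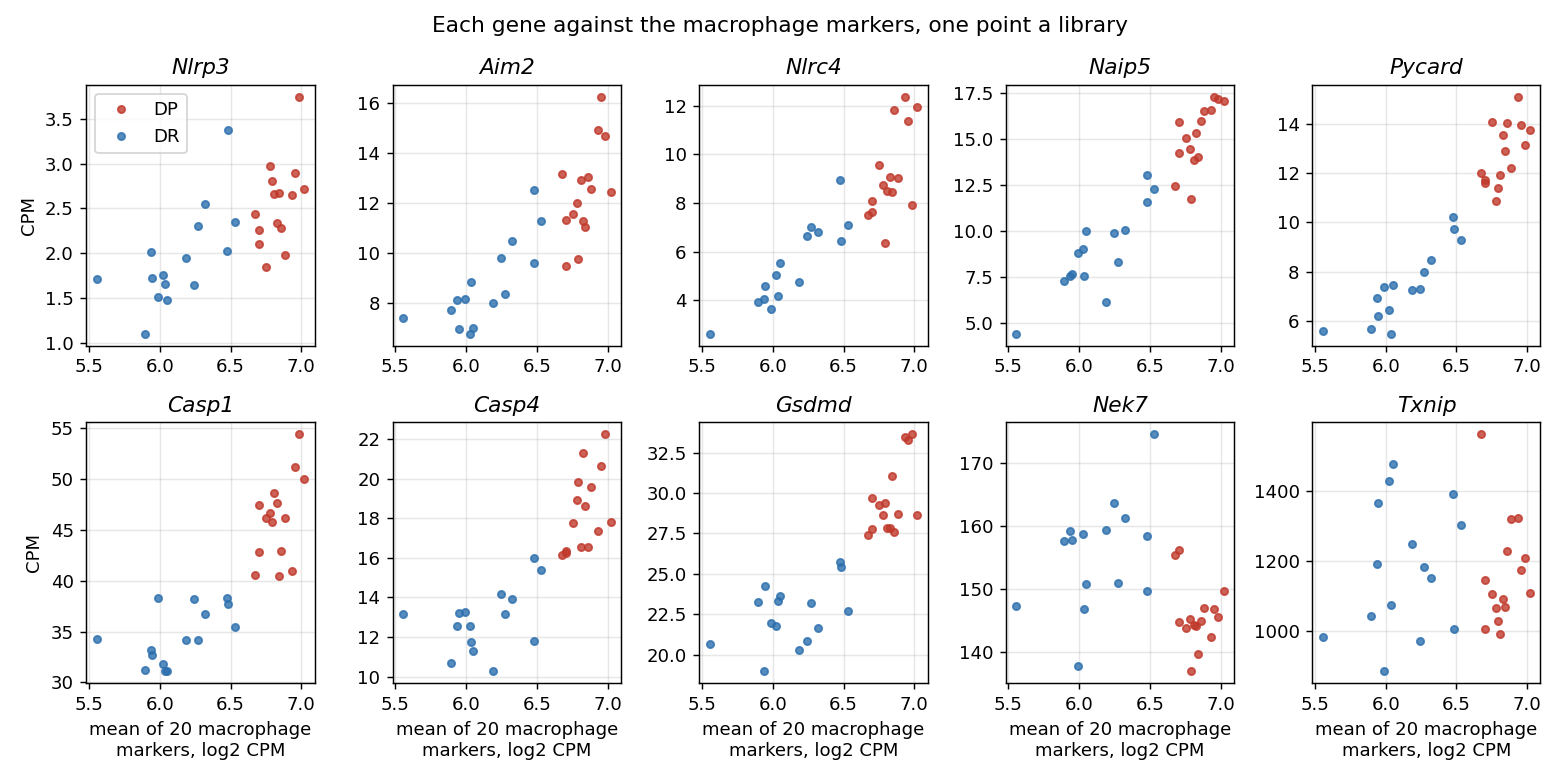
CPM of each of the 10 genes against the mean log2 CPM of 20 macrophage markers, with one point per library (n = 15 per group). The marker mean runs between 6.68 and 7.02 in DP and between 5.56 and 6.53 in DR, and Nlrc4 and Pycard climb with it within DR.

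The other 14 relations were between genes of the pathway. Pycard and Casp1 passed in DR by Pearson's r only, with r = 0.70 (adjusted p = 0.0284), rho = 0.62 (adjusted p = 0.0683) and r = 0.68 without the 2 farthest libraries, and had r = 0.02 (adjusted p = 0.978) in DP. Txnip and Mlxipl, which encodes ChREBP, passed in DR by rank only, with rho = -0.67 (adjusted p = 0.0387), r = -0.60 (adjusted p = 0.0593) and r = -0.63 without those 2, and had r = -0.17 (adjusted p = 0.633) in DP. Nlrp3 and Il1b had r = 0.21 in DP and -0.0024 in DR. For Txnip and Arrdc4 r was -0.27 in DP and 0.18 in DR. Casp1 and Casp4 had r = 0.58 in DP (adjusted p = 0.0674) and 0.56 in DR (adjusted p = 0.0760). For Nlrp3 and Casp1 r was 0.44 in DP and 0.50 in DR, and for Casp1 and Gsdmd 0.27 in DP and 0.07 in DR. Each of these was short of the threshold.

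Other genes of the pathway were grouped into 9 lists, read against the 28.2% higher and 27.3% lower over all genes. Of 14 other sensors and family members, 11 were tested, 8 were higher in DP and 1 was lower (median log2 fold change 0.64). Naip2, which in mice recognises the rod protein of bacterial secretion systems, had 30.5 to 40.4 CPM in DP, against 11.2 to 25.7 CPM in DR, and a log2 fold change of 0.91 ± 0.10 (SE; adjusted p = 5.76e-09). Nlrc3, Nlrp1b and the DNA sensor Ifi204 rose by 0.74, 0.81 and 0.66 on the log2 scale (adjusted p of 1.95e-08, 1.78e-07 and 2.09e-07). Nlrp1a was at 0 in every library. The mitochondrial family member Nlrx1 was the one that fell, with a log2 fold change of -0.22 (adjusted p = 0.000287); it was named after its value was seen.

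Among cytokines, receptors and inhibitors of the IL-1 family, 12 of 14 were tested, 7 were higher and 3 lower (median log2 fold change 0.44). Il1b, a main substrate of caspase-1, had few counts: its levels were 0.459, 0.840 and 1.39 CPM as lowest, median and highest in DP, against 0.358, 0.476 and 1.14 CPM in DR. The log2 fold change of Il1b was 0.56 ± 0.18 (SE; adjusted p = 0.00880), and in the libraries with higher numbers alone it was 0.44 (adjusted p = 0.240). Il18, the other substrate, had 4.24, 5.48 and 6.85 CPM in DP, against 2.71, 3.73 and 5.24 CPM in DR, with a log2 fold change of 0.47 ± 0.09 (SE; adjusted p = 2.37e-05). Il1rn, the receptor antagonist that blocks IL-1, had 66.4, 94.5 and 129.4 CPM in DP, against 11.2, 30.8 and 79.1 CPM in DR, with a log2 fold change of 1.34 ± 0.19 (SE; adjusted p = 6.57e-07). The IL-33 receptor Il1rl1, the IL-1 receptor Il1r1 and its accessory chain Il1rap rose by 0.85, 0.41 and 0.52 on the log2 scale (adjusted p of 1.55e-08, 1.23e-06 and 1.63e-06). The 3 that fell were Sigirr, an inhibitory receptor, and the IL-18 receptor chains Il18r1 and Il18rap, with log2 fold changes of -0.29, -0.30 and -0.30 (adjusted p of 0.000679, 0.0227 and 0.0425); they were named after their values were seen. Il18r1 was called in neither set of library numbers alone, and Il18rap lost its call (log2 fold change -0.24 to -0.30) without any 1 of DP replicates 5, 8, 10, 11 and 14 or DR replicates 1, 9 and 14. Il18rap was also not called without a composition factor (adjusted p = 0.0714), without a filter (adjusted p = 0.0770) or in the libraries with lower numbers alone (adjusted p = 0.381, log2 fold change -0.21).

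Of 13 genes for priming and triggering NLRP3, 11 were higher and the other 2 did not pass (median log2 fold change 0.31). The chloride channel gene Clic1 had 162.8 to 231.3 CPM in DP, against 76.8 to 143.96 CPM in DR. The potassium channel gene Kcnk6 had 20.3 to 28.2 CPM in DP, against 11.2 to 19.7 CPM in DR. Their log2 fold changes were 0.77 (adjusted p = 1.05e-09) and 0.68 (adjusted p = 3.76e-09). The lysosomal protease Ctsb and the receptor Tlr2 rose by 0.54 and 0.63 on the log2 scale (adjusted p of 9.93e-09 and 5.23e-08). Of 15 regulators of NLRP3, 13 were tested, 7 were higher and 3 lower (median 0.09). They included the kinase Btk at a log2 fold change of 0.92, Trim30a at 0.39 and Tnfaip3 at 0.35 (adjusted p of 7.78e-09, 7.54e-06 and 0.000199). Nek9, which acts upstream of Nek7 in mitosis, had -0.09 (adjusted p = 0.000593), and Brcc3 and Mavs, named after their values were seen, had -0.13 and -0.09 (adjusted p of 0.00580 and 0.0106). Neither set of library numbers alone called Brcc3, and Mavs was not called without a composition factor (adjusted p = 0.102) or in the libraries with higher numbers alone (adjusted p = 0.142).

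Of the guanylate-binding proteins and related GTPases, which open bacterial membranes for caspase-11 and AIM2, 0 of 12 were higher and 5 were lower (median -0.19). The counts were also 0 and 5 by DESeq2, by limma-voom and at an unadjusted p under 0.05. Gbp4, Gbp9, Gbp5 and Gbp7 had log2 fold changes of -0.83, -0.33, -0.43 and -0.34 (adjusted p of 0.000837, 0.00551, 0.0150 and 0.0150). Gbp2, the fifth, had -0.24 (adjusted p = 0.0354), was named after its value was seen, and was not called without DP replicate 5, DP replicate 11 or DR replicate 14 (adjusted p of 0.0531, 0.0545 and 0.0535). Gbp2 was also not called without a composition factor (adjusted p = 0.0739) or without a filter (adjusted p = 0.0677). In the libraries with lower numbers alone 0 of the 12 were called, with adjusted p of 0.0790, 0.310, 0.304 and 0.369 for the first 4 and 0.615 for Gbp2, whose log2 fold change there was -0.0999, and in those with higher numbers alone 5 were lower. Of 5 other caspases, 3 were higher and 2 did not pass (median log2 fold change 0.16). Casp9, Casp8 and Casp2 rose by 0.18, 0.18 and 0.16 on the log2 scale (adjusted p of 3.27e-05, 0.000502 and 0.00494). Casp8 and Casp2 were not called in the libraries with higher numbers alone (adjusted p of 0.192 and 0.290).

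Beyond Gsdmd, 8 of 10 genes for gasdermins and membrane rupture were too low to test, and Gsdmc was at 0 in every library; DESeq2, run on genes below that filter too, called 2 of them lower, Gsdma3 and Gsdma2, which had medians of 0.173 and 0.105 CPM in DP, against 0.429 and 0.247 CPM in DR, and were named after their values were seen. Gsdme, another pore-forming gasdermin, had a log2 fold change of 0.03 ± 0.05 (SE; adjusted p = 0.580), and Ninj1, which ruptures the membrane after pores form, rose by 0.29 (adjusted p = 1.89e-07). Of 8 genes for membrane repair by ESCRT-III, 3 were higher and 1 lower (median 0.03): Chmp4b, Pdcd6ip and Vps4b had log2 fold changes of 0.22, 0.18 and 0.20 (adjusted p of 2.59e-09, 4.94e-06 and 2.01e-05), and Chmp2a -0.09 (adjusted p = 0.00790, 0.0653 without a composition factor, and 0.0710 in the libraries with lower numbers alone).

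Txnip belongs to the alpha-arrestins, and TXNIP inhibits thioredoxin. Of 12 genes for thioredoxins, alpha-arrestins and the sugar-sensing factors, 5 were higher and 2 lower (median 0.04). Txn1, the cytosolic thioredoxin to which TXNIP binds, had 88.4 to 114.4 CPM in DP, against 69.1 to 86.1 CPM in DR, with a log2 fold change of 0.35 ± 0.04 (SE; adjusted p = 5.13e-09). Its reductase Txnrd1 and the alpha-arrestin Arrdc1 rose by 0.29 and 0.36 on the log2 scale (adjusted p of 1.10e-07 and 5.63e-08), and the mitochondrial Txn2 fell by 0.15 (adjusted p = 1.40e-05). Arrdc4, the relative of Txnip induced by the same sugar-responsive factors, had 25.1, 30.4 and 38.8 CPM as lowest, median and highest in DP, against 23.8, 27.96 and 32.3 CPM in DR. Its log2 fold change was 0.17 ± 0.05 (SE; adjusted p = 0.00869), and 0.07 (adjusted p = 0.365) in the libraries with higher numbers alone. Mlxipl had a log2 fold change of -0.34 (adjusted p = 4.34e-05) and was named after its value was seen.

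**Figure D5:**
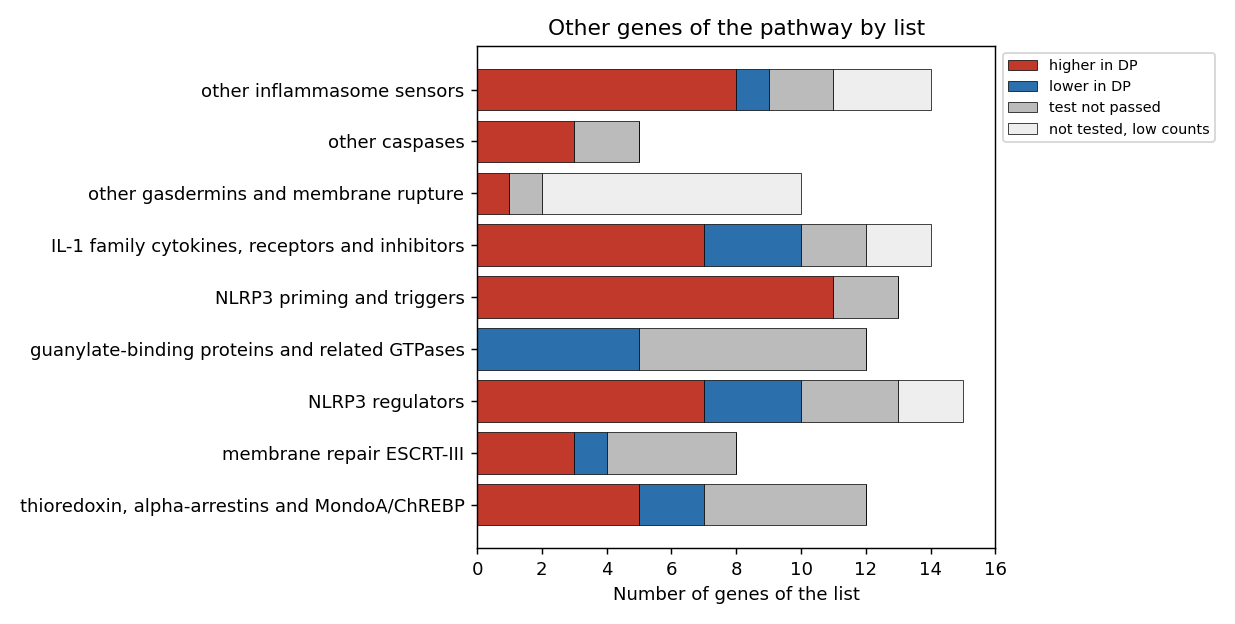
Number of genes of each of the 9 other lists that were higher in DP, lower in DP, short of the threshold or not tested for low counts, from the edgeR fit. Genes for NLRP3 priming and triggers were higher for 11 of 13, and guanylate-binding proteins for 0 of 12.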

How the data were processed

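RNA of each gWAT sample was isolated by miRNeasy and sequenced at BGI. The authors deposited 1 table of estimated counts per gene, whole numbers from StringTie (2.1.3b, GRCm38.p6, per the labels). For the aligner, annotation release and strand setting, none is given in the sources used here. The table held 55401 genes in 30 libraries, with no column left unused.

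Expected counts were tested as deposited with edgeR (4.0.16, R 4.3.3): TMM factors, filterByExpr defaults, a quasi-likelihood F test of DP over DR, and Benjamini-Hochberg adjustment over all 17482 tested genes (threshold 0.05). Standard errors were the absolute log2 fold change over the square root of F. CPM were counts scaled to library size with TMM factors, and log2 CPM used a prior count of 2. Counts were simulated over 17482 genes with DP and DR library sizes, with 200 genes changed. Recovered were 28 of 50 genes changed 1.25-fold, 38 of 50 changed 1.5-fold and 48 of 50 changed 2-fold. Of the calls, 5.23% were false. In the data 9704 genes were called, far more than were changed in the simulation, so these rates need not hold for the data. Levels between genes used CPM per kb of merged GENCODE M21 exon.

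Alternatives were DESeq2 (1.42.0), limma-voom (3.58.1) with quality weights, other size factors, other filters, library number as a covariate or as 2 sets of 15 libraries, the macrophage marker mean as a covariate, and leaving out each library. Relations used 100000 resamples. Promoter windows came from RefSeq (GRCm38.p6), and 9 of 10 genes matched. The genes and lists were chosen with earlier results of these data known. Named were the 10 genes, up to 4 genes with the smallest p from each other list, Il1b, Il18 and Arrdc4, and for each of the 10 the 3 genes of mean count 50 or more most like it. Pydc3 and Il36g entries matched the table as Ifi208 and Il1f9, and 2 genes of these lists are not reported here.

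Each library was 1 mouse, per the study's methods, and the labels do not pair mice across groups. No pair of libraries was alike to within sampling noise (of 435 pairs, chi-square over degrees of freedom was at least 7.02).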

Additional observations from a re-analysis of the deposited data

How the results depend on the processing

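Of the 10 genes, 8 were higher and 1 was lower in DP under DESeq2, limma-voom, 3 other size factors, no filter, a mean CPM over 1, library number as a covariate and the lower library numbers alone. They were also 8 and 1 when any of the 30 libraries was left out. With a mean FPKM over 1, Nlrp3 was not tested, and 7 were higher and 1 lower. No paired analysis was possible because the labels give libraries no shared replicate numbers.

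In the 15 libraries with higher numbers, 6213 genes were called against 9704, 7 of the 10 genes were higher and 0 lower. Nlrp3 had a log2 fold change of 0.16 and Nek7 of -0.10 there, both short of the threshold, and Txnip had 0.0131, against 0.00539 without a composition factor and -0.02 in the main result. The cause was not tested. At this depth, 8 of the 10 genes for other gasdermins and membrane rupture were too low to test.

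With the macrophage marker mean as a covariate, 0 genes were called by edgeR, among them 0 of the 10 in either direction, and 1808 had an unadjusted p under 0.05. No other tool was run with this covariate, which correlated with group at 0.88. The covariate ran from 6.68 to 7.02 in DP and from 5.56 to 6.53 in DR, without overlap. The direction turned for Nlrp3 (-0.29, SE 0.19), Aim2 (-0.0776, SE 0.13), Nlrc4 (-0.34, SE 0.16) and Naip5 (-0.0777, SE 0.13). It also turned for Casp8 (-0.0503), Casp2 (-0.0599), Gsdme (-0.0145), Il1rn (-0.13), Gbp7 (0.0145), Gbp4 (0.17), Gbp9 (0.00024), Chmp2a (0.0123), Vps4b (-0.0462), Pdcd6ip (-0.0237), Tnfaip3 (-0.0213), Mavs (0.0115), Mlxipl (0.00697) and Arrdc4 (-0.0549), all as log2 fold changes. Gsdme, not called in the main result, was at -0.0015 with upper quartile factors and between -0.00286 and 0.0449 when 1 library was left out.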
